A study of Caenorhabditis elegans with 12 samples.

Results

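The genes pud-1.1, pud-1.2 and pud-3 encode small nematode proteins named for their rise in long-lived daf-2 mutants. They are 3 of the 12894 genes listed and were chosen by symbol, because in these data they stood high in libraries labelled daf-2 RNAi. Messenger RNA was measured in whole early adults of the wild-type Caenorhabditis elegans strain N2 (Bristol), in 12 libraries that form 4 groups of 3. Hatchlings without food stop developing in the first larval stage (L1 arrest), and they were kept so for 8 days (starved) or 1 day (control). They then recovered at 20 °C on HT115 bacteria that carried a daf-2 RNAi construct or the empty vector (EV), until eggs appeared. The groups are starved daf-2 RNAi, starved EV, control daf-2 RNAi and control EV. Recovery took about 68 hours after the long arrest and about 52 hours after the short one, so the effects of long arrest and of longer recovery cannot be told apart. The design calls the 3 libraries of a group biological replicates, and the labels letter them A, B and C.

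DAF-2 is the insulin and IGF receptor of the worm. When its signal is low, the kinases below it (AGE-1, PDK-1, AKT-1, AKT-2) no longer keep the transcription factor DAF-16 out of the nucleus, and DAF-16 changes the expression of stress and longevity genes. The PUD proteins were found in protein surveys of daf-2 mutants, PUD-1 and PUD-2 form a heterodimer, and both are known from the intestine and hypodermis of adult worms.

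The level of daf-2 itself went against the label. It averaged 369 ± 306 CPM in starved daf-2 RNAi libraries and 149.5 ± 45.6 CPM in starved EV libraries (SD, n = 3 each), where CPM is the deposited unit, reads scaled to a common library size. It averaged 212 ± 99.8 CPM in control daf-2 RNAi and 145 ± 49.0 CPM in control EV libraries. By letter (A, B and C), the daf-2 RNAi library held 3.65, 1.89 and 1.08 times the EV level in starved animals. The ratios were 1.69, 1.30 and 1.29 in control animals. Whether all reads of daf-2 came from worm messenger RNA was not tested. Genes were tested with limma, a linear model fitted to log2(CPM + 1) of all genes, and called at an adjusted p under 0.05. The difference of daf-2 was not called at either arrest length (limma, adjusted p = 0.212 starved and 0.917 control). Taking same-lettered libraries as pairs within an arrest length called 28% of all genes higher and 29.6% lower in starved animals. Among these was daf-2 (limma, adjusted p = 0.00598), with the higher level under the RNAi label. All directions below therefore follow the labels and not a measured loss of daf-2. Depth was 21150912 to 30037731 reads over the listed genes, and libraries of 1 group correlated at 0.972 to 0.994 on log2 values.

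All 6 genes with a pud symbol lie in 1 cluster on chromosome V of the WBcel235 assembly, and all 6 were listed and tested. The cluster holds 3 pairs of genes that are transcribed away from each other. The first pair is pud-1.2 (Y19D10B.7, chromosome V, 2322038 to 2322566, minus strand) and pud-2.2 (F15E11.14, 2323014 to 2323524, plus strand), with 447 bases between them. The second is pud-3 (F15E11.15, 2324634 to 2325152, minus strand, 1 exon) and pud-4 (F15E11.12, 2326678 to 2327282, plus strand), 1525 bases apart. The third is pud-2.1 (F15E11.1, 2329444 to 2329954, minus strand) and pud-1.1 (F15E11.13, 2330429 to 2330930, plus strand), 474 bases apart. Thus each pud-1 gene stands head to head with a pud-2 gene, the partner of its protein. All but pud-3 have 2 exons, and no exon of the 6 overlaps an exon of another gene. RefSeq names F15E11.1 as pud-2.1, whereas the Ensembl annotation writes pud-2.2 for it and for F15E11.14. The RefSeq name is used here.

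**Figure D1:**
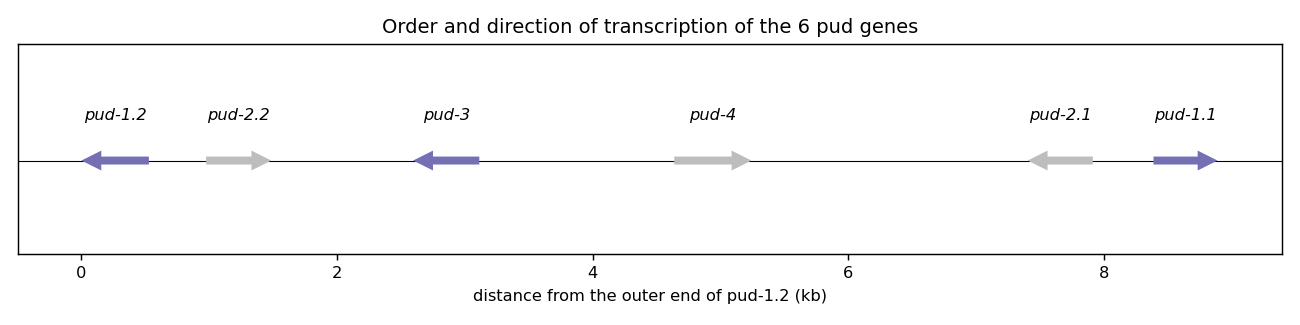
Map of the pud cluster, drawn to scale in kb from the outer end of pud-1.2, with arrows in the direction of transcription; purple marks pud-1.1, pud-1.2 and pud-3 and grey the other pud genes. The 6 genes form 3 pairs that point away from each other, with gaps of 447, 1525 and 474 bases inside the pairs.

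The pud-1.1 level was 101.7, 71.2 and 236 CPM in starved daf-2 RNAi libraries A, B and C, and 80.7, 60.4 and 176 CPM in starved EV libraries A, B and C. It was 77.8, 118.6 and 151 CPM in control daf-2 RNAi libraries, and 20.6, 18.1 and 20.4 CPM in control EV libraries. The 3 control EV libraries lay close together and below all 9 others, whose groups overlapped each other. The means were 136 ± 87.8, 106 ± 61.6 and 116 ± 36.9 CPM in starved daf-2 RNAi, starved EV and control daf-2 RNAi libraries, against 19.7 ± 1.39 CPM in control EV libraries (SD, n = 3 each).

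Its paralog pud-1.2 showed the same order of libraries within each of the 3 high groups. It had 94.997, 58.8 and 211 CPM in starved daf-2 RNAi libraries A, B and C, and 73.7, 59.0 and 159 CPM in starved EV libraries. In control daf-2 RNAi libraries it had 65.6, 101.4 and 130 CPM, against 20.2, 16.17 and 16.37 CPM in control EV libraries. Here too, control EV stood below the rest without overlap. Library C was the highest and library B the lowest in both starved groups, while in control daf-2 RNAi library A was the lowest.

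The level of pud-3 was 76.4, 36.6 and 186 CPM in starved daf-2 RNAi libraries A, B and C, and 46.8, 29.8 and 109 CPM in starved EV libraries. It was 45.2, 51.8 and 102 CPM in control daf-2 RNAi and 7.04, 2.89 and 6.19 CPM in control EV libraries. Of the 3 genes, pud-3 had the lowest level in control EV and the widest span between group means as a ratio, though not in CPM. Its control EV values rest on 70 to 142 reads, whereas pud-1.1 and pud-1.2 had 352 to 439 reads there, and the highest library of all had 5443 reads of pud-1.1.

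Per kilobase of exon, pud-1.1 stood above pud-1.2 and pud-1.2 above pud-3 in the mean of each group. In starved daf-2 RNAi libraries the 3 genes averaged 299, 251 and 192 CPM per kb, and in starved EV libraries 232, 201 and 118.985 CPM per kb. In control daf-2 RNAi libraries they averaged 254, 205 and 128 CPM per kb, against 43.2, 36.4 and 10.35 CPM per kb in control EV libraries. In each of the 3 high groups the gap between the means of pud-1.1 and pud-1.2 was smaller than the SD of either gene. How reads that match both copies were counted is not given, so the order of pud-1.1 and pud-1.2 is uncertain. By mean level the groups ran starved daf-2 RNAi, control daf-2 RNAi, starved EV and control EV for each of the 3 genes, and only the step down to control EV was without overlap. How many of all genes separated in this way was not counted.

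**Figure D2:**
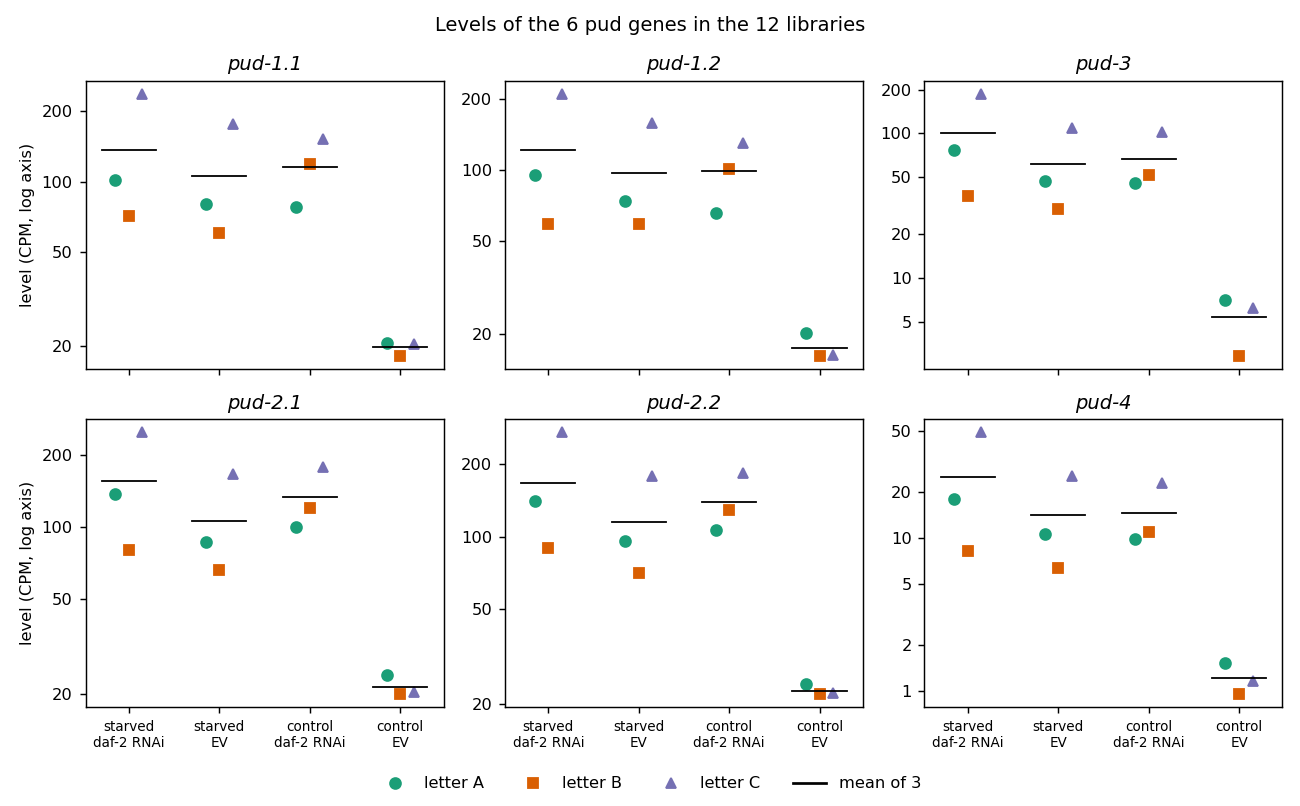
Level (CPM, log axis) of the 6 pud genes in each of the 12 libraries, by group, with a colour and shape for each replicate letter and a black line at the mean of 3 libraries. In each panel the 3 control EV libraries lie below the other 9, and letter C is the highest in the other 3 groups.

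In control animals, the libraries labelled daf-2 RNAi held 2.45 ± 0.43 (pud-1.1), 2.38 ± 0.43 (pud-1.2) and 3.37 ± 0.56 (pud-3) more than EV libraries (log2 difference of CPM + 1 ± SE). This contrast chose the genes, so these values are a description without a test. By size of difference the 3 genes ranked 13, 14 and 2 from the highest of the 12830 genes tested. In this comparison 0.663% of all genes were called higher and 0.725% lower, 178 genes in all. With the letters as pairs within arrest length 1504 genes were called, 3.47% higher and 8.25% lower. Of the 178, 47.8% were higher, or 58.3% of the calls after quantile normalisation. Within letters A, B and C, the control daf-2 RNAi library held 3.78, 6.55 and 7.41 times the pud-1.1 CPM of its EV library. For pud-3 the ratios were 6.42, 17.9 and 16.5. The ratios of pud-1.2 were 3.25, 6.27 and 7.93, so letter A had the smallest ratio for each of the 3 genes.

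In starved animals the same label went with much smaller differences. They were 0.33 ± 0.43 for pud-1.1, 0.25 ± 0.43 for pud-1.2 and 0.59 ± 0.56 for pud-3 (log2 ± SE, starved daf-2 RNAi against starved EV). The libraries of both groups overlapped for each gene. Within letters A, B and C the ratio of starved daf-2 RNAi to starved EV was 1.26, 1.18 and 1.34 for pud-1.1 and 1.29, 0.996 and 1.33 for pud-1.2. For pud-3 it was 1.63, 1.23 and 1.72. Thus the label came with a higher level in each letter pair except letter B of pud-1.2, where the libraries were level. These are again a description, in a comparison where 3.8% of all genes were called higher and 11.9% lower, 2017 genes in all. Taking letters as pairs, 7397 genes were called, 28% higher and 29.6% lower. Of the 2017, 24.2% were higher, or 42.3% of the calls after quantile normalisation.

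The RNAi difference in starved animals minus that in control animals was -2.12 ± 0.60 for pud-1.1, -2.13 ± 0.61 for pud-1.2 and -2.79 ± 0.80 for pud-3 (log2 ± SE). It was the third lowest, second lowest and lowest value among 12830 genes, given without a test for the same reason. Over all genes this difference of differences was called for 0% higher and 0% lower with limma, with 169 and 743 genes at an unadjusted p under 0.05. edgeR on the reads also called 0 genes, and DESeq2 called 4. With the letters as pairs within each arrest length, which the libraries' deviations bear out for the RNAi comparisons, 770 genes were called, 1.75% higher and 4.26% lower. The EV libraries enter both sides of this contrast and also the comparison of arrest lengths on EV, so the 3 sets of values are not independent.

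On EV, the 3 genes stood higher after long arrest. The log2 difference of starved EV against control EV was 2.22 ± 0.43 for pud-1.1 (limma, adjusted p = 0.00626), 2.27 ± 0.43 for pud-1.2 (adjusted p = 0.00563) and 3.16 ± 0.56 for pud-3 (adjusted p = 0.00395). All 3 starved EV libraries exceeded all 3 control EV libraries for each gene, and the share of all genes that separated so was not counted. In this comparison 11.5% of all genes were called higher and 6.12% lower, and the 3 genes ranked 70, 63 and 21 from the highest difference. Within letters A, B and C the starved EV library held 3.92, 3.33 and 8.61 times the pud-1.1 CPM of the control EV library, 3.65, 3.65 and 9.68 times the pud-1.2 CPM and 6.66, 10.3 and 17.6 times the pud-3 CPM. The control EV libraries also set the RNAi contrast that chose the genes, so this test is not independent of the choice.

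Among libraries labelled daf-2 RNAi, long and short arrest overlapped. The log2 difference of starved daf-2 RNAi against control daf-2 RNAi was 0.10 ± 0.43 for pud-1.1 (limma, adjusted p = 0.971), 0.15 ± 0.43 for pud-1.2 (adjusted p = 0.955) and 0.37 ± 0.56 for pud-3 (adjusted p = 0.892). In this comparison 0.663% of genes were called higher and 0.039% lower. Libraries A and C were higher after long arrest and library B was lower. For pud-1.1 the ratios in letters A, B and C were 1.31, 0.60 and 1.56, and for pud-3 they were 1.69, 0.708 and 1.83. Without starved daf-2 RNAi library C the 3 differences turned to -0.39, -0.35 and -0.22 on the log2 scale. The SE leaves room for a change of either sign, so a lack of difference is not shown.

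**Figure D3:**
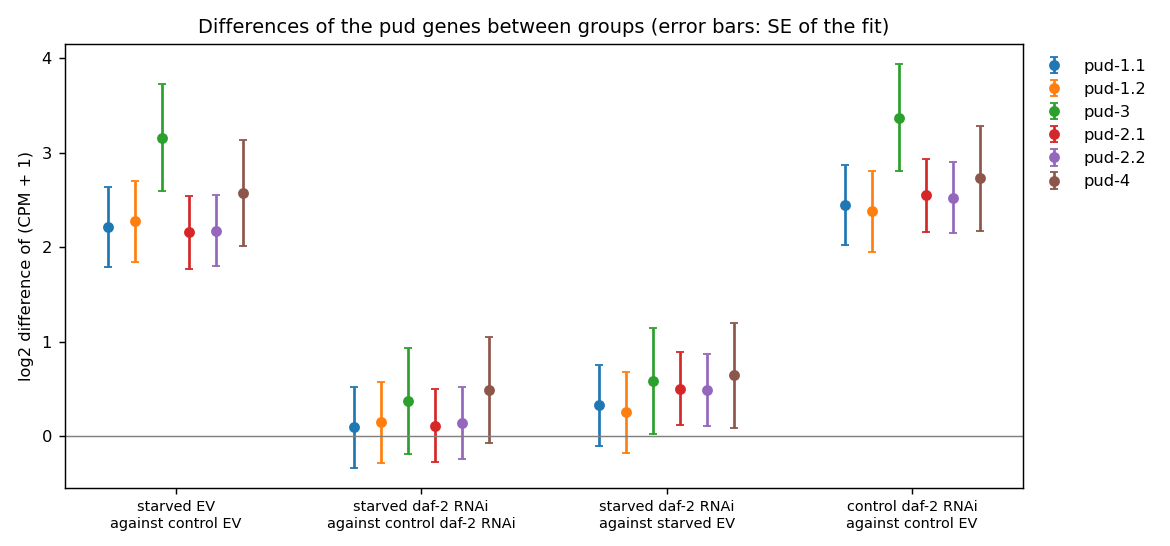
Log2 difference of CPM + 1 for the 6 pud genes in 4 comparisons; points are the fitted difference and bars its SE. The values lie between 2.16 and 3.37 in the first and the last comparison, which share the control EV libraries, and between 0.10 and 0.64 in the other 2.

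The other pud genes were not among those chosen and were tested in each comparison, but they share the cluster with the chosen genes. Over 12 libraries pud-2.1, pud-2.2 and pud-4 correlated at 0.995, 0.995 and 0.992 with the mean standardised log2 level of the chosen genes (Pearson's r). Their tests are therefore not independent of the choice. In control daf-2 RNAi against control EV, pud-2.1 rose by 2.55 ± 0.39 (limma, adjusted p = 0.00554), pud-2.2 by 2.52 ± 0.38 (adjusted p = 0.00521) and pud-4 by 2.73 ± 0.56 (adjusted p = 0.0317) on the log2 scale. The call of pud-4 was lost when any 1 of these 6 libraries was left out (limma, adjusted p = 0.063 to 0.151). In this comparison 0.663% of all genes were called higher and 0.725% lower. pud-2.1, whose protein pairs with PUD-1, averaged 155 ± 85.8 CPM in starved daf-2 RNAi, 106 ± 53.1 in starved EV and 133 ± 40.9 in control daf-2 RNAi, against 21.3 ± 2.23 CPM in control EV libraries (SD, n = 3 each). pud-2.2 averaged 167 ± 93.8, 115 ± 56.6 and 140 ± 40.2 CPM in those 3 groups, against 22.8 ± 1.21 CPM in control EV. pud-4, the neighbour of pud-3, was the least abundant, at 25.0 ± 21.3, 14.2 ± 10.1 and 14.6 ± 7.19 CPM, against 1.22 ± 0.30 CPM in control EV libraries, where it had 23 to 31 reads.

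In starved daf-2 RNAi against starved EV the 3 other pud genes differed by 0.50 ± 0.39, 0.49 ± 0.38 and 0.64 ± 0.56 on the log2 scale (pud-2.1, pud-2.2 and pud-4), which missed the threshold (limma, adjusted p = 0.336, 0.337 and 0.392). With the letters as pairs within arrest length, each was called higher (limma, adjusted p = 0.0177, 0.0101 and 0.0258). So were 28% of all genes in that fit, and 29.6% were called lower. In starved EV against control EV, pud-2.1 rose by 2.16 (limma, adjusted p = 0.00394), pud-2.2 by 2.18 (adjusted p = 0.00327) and pud-4 by 2.58 (adjusted p = 0.0109). There 11.5% of all genes were called higher and 6.12% lower. In starved daf-2 RNAi against control daf-2 RNAi, 0.663% of all genes were called higher and 0.039% lower. None of the 3 other pud genes was called there, with differences of 0.11, 0.14 and 0.49 (limma, adjusted p = 0.967, 0.949 and 0.837). Their group means ran in the same order as those of pud-1.1, pud-1.2 and pud-3.

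The RNAi difference of the other pud genes was smaller after long arrest by 2.05 ± 0.55 (pud-2.1), 2.03 ± 0.53 (pud-2.2) and 2.08 ± 0.79 (pud-4) on the log2 scale. These values missed the threshold (limma, adjusted p = 0.416, 0.416 and 0.660). With the letters as pairs within arrest length, all 3 passed it (limma, adjusted p = 0.00377, 0.00377 and 0.00956). That fit, chosen after seeing the data, called 1.75% of all genes higher and 4.26% lower, beside 0% and 0% without pairs.

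The levels of the 6 genes were closely correlated over the 12 libraries, though their shares of the reads were not fixed. Correlation within groups was not measured. Over 12 libraries the log2 levels of any pair of pud genes correlated at 0.987 to 0.999 (Pearson's r, a description, since the libraries share 4 groups and their depth). Summed over the 6 genes, the level was 568, 344 and 1202 CPM in starved daf-2 RNAi libraries A, B and C, 394, 292 and 814 CPM in the starved EV libraries and 405, 532 and 769 CPM in control daf-2 RNAi, against 97.5, 80.03 and 86.6 CPM in control EV. Library C was the highest in each of the 3 high groups. In control EV, with the lowest sums, A was the highest.

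Within the cluster, the division of reads varied little between the close copies and more for pud-3. pud-1.1 took between 50.5% (exact Clopper-Pearson 95% interval 47.1 to 54.02, control EV library A) and 55.5% (52.0 to 59.0, control EV library C) of the reads of pud-1.1 and pud-1.2, with a mean of 53.0 ± 1.56% (SD, n = 12). The pud-1.1 share was 53.8 to 54.3% in control daf-2 RNAi and 50.6 to 52.6% in starved EV libraries, without overlap. pud-2.1 took 47.3 to 49.6% of the reads of pud-2.1 and pud-2.2. How reads that match both copies were counted is not given in the sources used here, so the levels of single copies are uncertain, and the part of the counting in these shares was not tested. The intervals cover counting error only.

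Of all pud reads, pud-3 held 13.2 ± 2.44% in starved daf-2 RNAi, 11.8 ± 1.58% in starved EV and 11.4 ± 1.77% in control daf-2 RNAi, against 5.99 ± 2.06% in control EV libraries (SD, n = 3 each). The control EV libraries spanned 3.62 to 7.22% and the other 9 spanned 9.73 to 15.5%, without overlap. pud-4 had a share of 3.20, 2.67 and 2.49% in the same 3 groups, against 1.37% in control EV. Thus the central pair, pud-3 and pud-4, took a smaller part of the reads in control EV than elsewhere, as a description, since pud-3 was chosen on 1 of these contrasts.

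**Figure D4:**
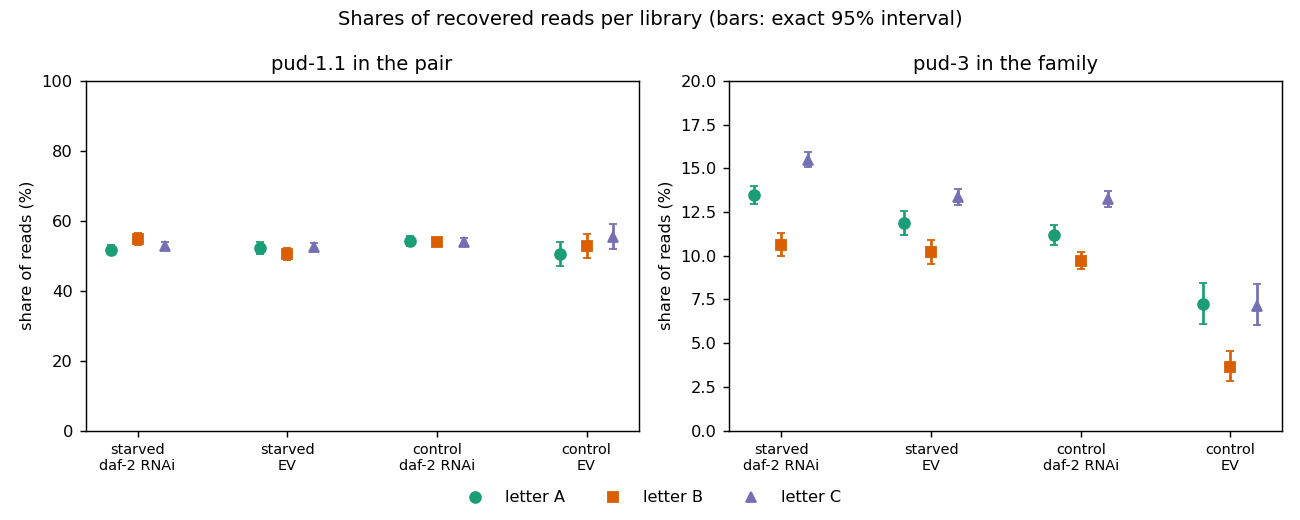
Share (%) of pud-1.1 in the reads of pud-1.1 and pud-1.2 (left) and of pud-3 in the reads of the 6 pud genes (right), per library, with the exact 95% interval for counting error as bars. The left share stays between 50.5 and 55.5%, and the right share is lowest in control EV, at 3.62 to 7.22%, against 9.73 to 15.5% elsewhere.

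The listed gene next to the cluster had another order of groups. Y19D10B.6, on the same strand as pud-1.2 and next to it, was the 1 other listed gene within 10 kb of a pud gene that was analysed here. It averaged 2.25 ± 0.22 CPM in starved daf-2 RNAi, 3.23 ± 0.53 in starved EV and 3.31 ± 0.72 in control daf-2 RNAi, and 4.79 ± 0.63 CPM in control EV libraries (SD, n = 3 each). So it stood highest in control EV, where the pud genes stood lowest. None of its differences was called (limma, adjusted p = 0.0786 to 0.461 over the 4 comparisons).

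Of 20 genes of insulin signalling and its transcription factors tested, akt-2, a kinase below the receptor, rose and sgk-1, a related kinase, fell in control daf-2 RNAi against control EV, where 0.663% and 0.725% of all genes did. akt-2 averaged 19.2 ± 0.47 CPM in control daf-2 RNAi and 9.66 ± 0.83 CPM in control EV libraries (log2 difference 0.92 ± 0.13, limma, adjusted p = 0.00351). sgk-1 averaged 17.6 ± 2.43 CPM in control daf-2 RNAi and 27.1 ± 0.25 CPM in control EV libraries (limma, adjusted p = 0.0322). In starved animals 5 rose under the RNAi label (pdk-1, akt-1, daf-18, hsf-1 and akt-2) and sgk-1 fell, where 3.8% of all genes rose and 11.9% fell. The median log2 difference of the 20 genes was 0.30 in starved and 0.18 in control animals, beside 0.00 and -0.01 over all genes. With the letters as pairs, 12 rose and 4 fell in starved animals, where 28% of all genes rose and 29.6% fell, and 3 rose and 1 fell in controls, where 3.47% and 8.25% of all genes did. In starved EV against control EV akt-2 and pqm-1 were the 2 of 20 genes that rose, a share near the 11.5% of all genes called higher there. No gene of the list was called between arrest lengths among daf-2 RNAi libraries, where 0.663% of all genes rose and 0.039% fell.

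Neither daf-16 nor pqm-1 had its lowest mean in control EV. daf-16 averaged 175 ± 15.9 CPM in starved daf-2 RNAi, 179 ± 36.9 in starved EV and 161 ± 8.31 in control daf-2 RNAi, and 163 ± 27.7 CPM in control EV libraries. None of its differences was called (limma, adjusted p = 0.586 to 0.994). pqm-1, a zinc finger factor gene whose protein enters the nucleus when DAF-16 is kept out, averaged 15.5 ± 2.21 CPM in starved daf-2 RNAi, 21.6 ± 1.86 in starved EV, 10.3 ± 1.86 in control daf-2 RNAi and 12.5 ± 2.45 CPM in control EV libraries. It rose in starved EV against control EV (limma, adjusted p = 0.0141). Its difference of -0.47 ± 0.17 in starved daf-2 RNAi against starved EV, without overlap between the groups, missed the threshold (limma, adjusted p = 0.0819) and was called with the letters as pairs (limma, adjusted p = 0.0222).

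Of 24 genes listed as activated by DAF-16, 21 were tested, and 5 rose and 0 fell in control daf-2 RNAi against control EV, beside 0.663% and 0.725% of all genes. These were nnt-1 (a nicotinamide nucleotide transhydrogenase), lys-7 (a lysozyme), dod-3, ftn-1 (a ferritin) and sod-3 (a manganese superoxide dismutase). Under the pairing 11 rose and 1 fell, beside 3.47% and 8.25% of all genes. In starved animals 7 rose under the RNAi label (mtl-1, ftn-1, nnt-1, dod-3, lys-7, sod-3 and cdr-2) and 2 fell (mtl-2 and hsp-12.3), beside 3.8% and 11.9% of all genes, and with pairs 10 rose and 3 fell, beside 28% and 29.6%. The median of the list was 0.45 in starved and 0.41 in control animals on the log2 scale, beside 0.00 and -0.01 over all genes. These lists were drawn up with earlier results of these data known.

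The RNAi difference of sod-3 was called at both arrest lengths. It averaged 12.1 ± 2.51 CPM in starved daf-2 RNAi and 3.52 ± 0.80 CPM in starved EV libraries (log2 difference 1.53 ± 0.20, limma, adjusted p = 0.000755). It averaged 11.03 ± 1.52 CPM in control daf-2 RNAi and 1.94 ± 0.39 CPM in control EV libraries (2.04 ± 0.20, limma, adjusted p = 0.00015). In starved EV against control EV it rose by 0.62 ± 0.20 (limma, adjusted p = 0.0479). Its RNAi difference was 0.51 ± 0.28 smaller after long arrest, which missed the threshold (limma, adjusted p = 0.721). mtl-1, a metallothionein, averaged 18.95 ± 16.01 CPM in starved daf-2 RNAi and 1.01 ± 0.33 CPM in starved EV libraries (3.04 ± 0.51, limma, adjusted p = 0.00374). It averaged 4.15 ± 3.89 CPM in control daf-2 RNAi libraries, against 0.11 ± 0.06 CPM in control EV libraries, where it had 1 to 3 reads, so that the fitted difference depends on the pseudocount (1.95 ± 0.51, limma, adjusted p = 0.105, or 0.00859 with the letters as pairs).

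dod-3 averaged 6.95 ± 2.02 CPM in starved EV and 1.01 ± 0.54 CPM in control EV libraries (log2 difference 2.00 ± 0.26, limma, adjusted p = 0.000493). It also rose among daf-2 RNAi libraries, with 33.5 ± 4.09 CPM in starved and 10.5 ± 3.05 CPM in control animals (1.61 ± 0.26, limma, adjusted p = 0.0128). In starved EV against control EV, 6 of the 21 genes rose (dod-3, nnt-1, mtl-2, cdr-2, ctl-2 and sod-3) and 0 fell, where 11.5% of all genes rose and 6.12% fell, with a median of 0.62 beside 0.03 over all genes. Among daf-2 RNAi libraries dod-3 was the 1 gene of the 21 called, where 0.663% of all genes rose and 0.039% fell.

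Of 8 genes listed as repressed by DAF-16, 6 were tested, and all 6 fell in starved daf-2 RNAi against starved EV (dod-24, dod-23, dod-22, dod-17, dod-19 and ins-7), where 11.9% of all genes fell. In control animals dod-24 alone was called lower, beside 0.725% of all genes, and 4 were with the letters as pairs, beside 8.25%. dod-24 averaged 7.29 ± 2.67 CPM in starved daf-2 RNAi and 30.2 ± 2.25 CPM in starved EV libraries (log2 difference -1.96 ± 0.24, limma, adjusted p = 0.000592). In control animals it averaged 9.12 ± 2.65 CPM under the RNAi label and 32.9 ± 3.83 CPM on EV (-1.78 ± 0.24, limma, adjusted p = 0.00286). None of the 6 was called in either comparison of arrest lengths. Of all genes, 11.5% rose and 6.12% fell on EV, and 0.663% rose and 0.039% fell on daf-2 RNAi.

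The 5 genes most like pud-1.1, pud-1.2 and pud-3, among 7462 with a mean of at least 10 CPM, were F21C10.10, hda-5 (a histone deacetylase gene), acs-7 (an acyl-CoA synthetase gene), aat-1 (an amino acid transporter gene) and ttr-44 (a transthyretin-related gene). Pearson's r with the mean of the standardised log2 levels of the 3 genes was 0.961, 0.957, 0.948, 0.944 and 0.930 over 12 libraries. By the same measure pud-2.1, pud-2.2 and pud-4 stood higher, at 0.995, 0.995 and 0.992. F21C10.10 averaged 95.7 ± 32.2 CPM in starved daf-2 RNAi, 60.3 ± 18.4 in starved EV and 66.6 ± 16.5 in control daf-2 RNAi, against 23.9 ± 2.57 CPM in control EV libraries. hda-5 had a narrower spread, at 17.03 ± 2.16, 16.5 ± 0.55 and 15.9 ± 2.08 CPM in those 3 groups, against 8.38 ± 0.27 CPM in control EV. All 5 had their lowest group mean in control EV, with smaller log2 differences than any pud gene in each of the 2 comparisons whose baseline is control EV. Because they were picked by this correlation, their low level in control EV is not a separate result. The same measure was 0.801 for sod-3, 0.731 for mtl-1, 0.308 for pqm-1, 0.062 for daf-2 and -0.071 for daf-16.

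Whole animals were sequenced, so fewer cells of a tissue and less RNA per cell cannot be told apart. Markers of the intestine and hypodermis also differed between groups. In starved EV against control EV, 3 of 11 intestine markers (pgp-1, mtl-2 and ges-1) and 4 of 9 hypodermis markers (dpy-7, col-10, qua-1 and wrt-2) rose and 0 fell, and 4 of 8 germline markers fell, where 11.5% of all genes rose and 6.12% fell. The summed intestine level was 2152 to 3600 CPM in starved EV and 2395 to 3642 CPM in control EV libraries, and the summed hypodermis level was 1360 to 1581 CPM in starved EV and 1708 to 2421 CPM in control EV libraries. The mean log2 level over the markers, in which each counts alike, ran the other way for the hypodermis, at 4.30 to 4.79 in starved EV and 3.36 to 3.74 in control EV libraries. For the intestine it was 6.18 to 6.43 in starved EV and 5.77 to 6.07 in control EV libraries. On this scale both marker lists were higher in starved EV, as the pud genes were, without overlap. The neuron list was higher there too, at 4.69 to 5.22 in starved EV and 4.25 to 4.50 in control EV libraries. Its sum also rose without overlap, at 303 to 401 CPM in starved EV and 267 to 298 CPM in control EV libraries. The rise was thus not particular to the intestine and hypodermis lists. Germline markers summed to 2247 to 3163 CPM in starved EV and 3641 to 4259 CPM in control EV libraries. No intestine marker was at 0 in any library, and 1 hypodermis marker in control daf-2 RNAi and 2 in control EV were at 0 in at least 1 library. Of 6 body muscle markers 0 were called and of 6 neuron markers 2 rose. The part of tissue makeup in the pud differences was not tested.

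In control daf-2 RNAi against control EV, ges-1 rose and pho-1 fell among intestine markers, and no hypodermis, germline, muscle or neuron marker was called, where 0.663% of all genes rose and 0.725% fell. Taking letters as pairs, 2 intestine markers rose and 6 fell, 2 hypodermis, 3 body muscle and 1 neuron marker fell and no germline marker was called, where 3.47% of all genes rose and 8.25% fell. The summed intestine level was 2140 to 2614 CPM in control daf-2 RNAi and 2395 to 3642 CPM in control EV libraries, and the mean log2 level was 5.62 to 5.83 in control daf-2 RNAi and 5.77 to 6.07 in control EV libraries. The hypodermis sum was 1160 to 2082 CPM in control daf-2 RNAi and 1708 to 2421 CPM in control EV libraries, and its mean log2 level 3.23 to 3.47 in control daf-2 RNAi and 3.36 to 3.74 in control EV libraries. In starved daf-2 RNAi against starved EV, 1 intestine marker rose and 6 fell, 3 hypodermis markers fell and 5 germline markers rose, where 3.8% of all genes rose and 11.9% fell. Under the pairing 2 intestine markers rose and 9 fell, 1 hypodermis marker rose and 7 fell, 6 of 6 body muscle and 4 of 6 neuron markers fell and 8 of 8 germline markers rose, where 28% of all genes rose and 29.6% fell. No marker of the 5 tissues was called in starved daf-2 RNAi against control daf-2 RNAi, where 0.663% of all genes rose and 0.039% fell.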

How the data were processed

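The authors deposited a table of normalised signal values, reads scaled to a common library size (called CPM here). Bowtie 1.1.2, HTSeq 0.12.4 and edgeR are given, per the submitters' processing notes, with no role, and the genome build is not given in the sources used here. Per the labels' protocols, about 1000 animals per condition gave 500 ng of RNA per library, with 12 PCR cycles and a kit that keeps no strand. Each signal value is a multiple of 1 step per library, and dividing by it gave whole reads for 100% of values (tolerance 0.01 read), the source of depths and shares. Names matched for 12734 of 12894 genes. Genes with at least 1 CPM in 3 libraries (12830) were fitted with limma 3.58.1 (R 4.3.3, trend) on log2(CPM + 1), 4 groups in 1 fit, two-sided, Benjamini-Hochberg adjustment over all genes, threshold 0.05. An exact test of 3 against 3 libraries cannot go below 0.1.

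In simulated data for starved EV against control EV, with 12830 genes, 12%, 68% and 100% of genes raised 1.5, 2 and 4 times and 56% of genes lowered to 0.5 were recovered, with 3 false among 121 calls. Simulated libraries were drawn independently, so these rates do not cover deviations that same-lettered libraries share. The design assumed CPM, and its test was kept. Same-lettered libraries deviated together in the RNAi comparisons (correlations 0.821, 0.596 and 0.593 starved, 0.695, 0.55 and 0.541 control, letters A, B and C), which pairs them by what the data show and not by the labels. Across arrest lengths letters A and C did so too (0.645 and 0.659 on EV, 0.487 and 0.579 on daf-2 RNAi). Letter B did not (0.085 on EV and -0.095 on daf-2 RNAi). Alternatives were other pseudocounts, filters and scalings, edgeR 4.0.16 and DESeq2 1.42.0 on the reads, the letter block, 6 libraries alone and each library left out. The genes and lists were chosen with earlier results of these data known. Named genes are the pud genes, listed genes within 10 kb, the 5 genes most alike, up to 3 called genes per list and RNAi comparison, and daf-2, daf-16, pqm-1, sod-3 and mtl-1.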

Additional observations from a re-analysis of the deposited data

Results flagged for a closer look

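The RNAi difference of 3 pud genes that were not used to choose the others differed between arrest lengths when the letters were taken as pairs. The difference in starved animals minus that in control animals was -2.05 for pud-2.1, -2.03 for pud-2.2 and -2.08 for pud-4 on the log2 scale. limma without pairs gave adjusted p = 0.416, 0.416 and 0.660, the letter block gave 0.0346, 0.0345 and 0.0748, and pairs within arrest length gave 0.00377, 0.00377 and 0.00956. Pairs within arrest length, chosen after seeing the data, called 1.75% of all genes higher and 4.26% lower. limma without pairs called 0% and 0%. These 3 pud genes correlate at 0.987 or more with the genes chosen on the RNAi contrast, and the 4 groups enter each value, so they are not independent support.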

How the results depend on the processing

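The calls of pud-1.1, pud-1.2 and pud-3 in starved EV against control EV held in 60 of 60 alternatives, with log2 differences of 1.78 to 3.57 and limma, edgeR or DESeq2 adjusted p of 1.5e-06 to 0.0285. The genes were chosen as high against the same control EV libraries, so this is not independent support. With each library left out, starved daf-2 RNAi against control daf-2 RNAi ran from -0.39 to 0.47 for pud-1.1, -0.35 to 0.57 for pud-1.2, -0.22 to 0.93 for pud-3, -0.30 to 0.51 for pud-2.1, -0.28 to 0.51 for pud-2.2 and -0.15 to 1.07 for pud-4. The sign turned without starved daf-2 RNAi C for each of the 6 genes and without control daf-2 RNAi A for pud-1.1 (-0.16), pud-1.2 (-0.12), pud-2.1 (-0.07) and pud-2.2 (-0.04). Starved daf-2 RNAi against starved EV ran from -0.16 to 0.77, -0.24 to 0.67 and -0.01 to 1.15 for pud-1.1, pud-1.2 and pud-3. Summing the reads of pud-1.1 and pud-1.2 gave 2.27 for starved EV against control EV and 2.45 for control daf-2 RNAi against control EV.

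Counts of genes called over the whole table moved far more. Starved EV against control EV had 2266, but 1335 with a mean of at least 5 CPM, 1484 after quantile normalisation, 6371 with the replicate block, 1124 in its 6 libraries alone and 728 to 2623 with 1 library left out (lowest without control EV C). Starved daf-2 RNAi against control daf-2 RNAi had 90, but 16, 54, 481 and 45 under those settings, 372 with DESeq2 and 28 to 195 with 1 library left out (lowest without control daf-2 RNAi B, highest without starved daf-2 RNAi B). Starved daf-2 RNAi against starved EV had 2017, but 1329 with the higher mean, 6151 with the replicate block, 7397 with the block within arrest length, 1035 in 6 libraries and 747 to 2147 with 1 library left out (lowest without starved EV C). Control daf-2 RNAi against control EV had 178, but 383 with DESeq2, 745 and 1504 with the blocks, 91 in 6 libraries and 60 to 180 with 1 library left out (lowest without control EV B). The cause of these moves was not tested. The replicate block did not change the calls of pud-1.1, pud-1.2 and pud-3 across arrest lengths. There, same-lettered libraries deviated together in letters A and C but not in B. The block within arrest length, the summing of pud-2.1 with pud-2.2 and the alternatives for the difference of differences were chosen after seeing the data. Quantile normalisation moved the median of all genes in starved EV against control EV to -0.07, beside 0.03 without it. The share of pud-1.1 in its pair averaged 52.7 to 53.2% with 1 library left out. Counting error bears on the ratios of pud-3, which had 70 to 142 reads in control EV.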
